A study of Mus musculus with 8 samples.

Results

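The Dlk1 to Dio3 imprinted cluster is a stretch of mouse chromosome 12 that holds 3 protein-coding genes and a long chain of noncoding RNA genes. It was described here in 8 RNA-seq libraries of mouse embryonic stem cells. Members were all genes of the deposited count tables lying between the start of Dlk1 and the end of Dio3 (mm10, chr12:109452823-110281097, a span of 828 kb) with 10 or more counts in at least 2 libraries, so that they were chosen by position and by read counts. Of 96 genes listed inside these bounds, and 43346 listed in all, 63 met the rule. They comprise 39 miRNA hairpin genes, 14 snoRNA genes, 5 long noncoding RNA genes, 3 protein-coding genes, 1 unclassified transcript and 1 other small RNA. The count minimum is met by levels in any group, so it fixes no direction between groups, but it favours members that are high in at least 1 group.

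All cells were of a 129xC57BL/6 background and carried the Rosa26Cre-ERT2/BirA-V5 alleles, the wild-type line included, and grew on gelatin in medium with serum and LIF. The 4 groups of 2 libraries were TRIM71-/- cells, which lack an RNA-binding repressor of mRNAs (the TRIM71 knockout), cells with both copies of the Mbnl1 3'UTR mutated (the Mbnl1 3'UTR mutant), cells stably transfected with MBNL1::T2A::Puromycin, which makes extra MBNL1, a splicing factor (Mbnl1 overexpression), and the unmodified line (wild type). Nothing in the labels tells whether replicate libraries came from separate cultures or clones. The p-values therefore reflect only how far these libraries scatter, and a difference between clones cannot be told apart from one between genotypes. Total counts were 75056306 to 86508533 per library, and 3 counts corresponded to 0.0347 to 0.04 CPM (library-scaled counts, with TMM factors throughout).

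In this cluster, as background, the parental chromosomes express different genes. Dlk1, a transmembrane relative of the Notch ligands, Rtl1, a retrotransposon-derived protein of the placenta and muscle, and Dio3, the deiodinase that inactivates thyroid hormone, come mainly from the paternal copy. Meg3, Rian and Mirg, with the miRNAs and C/D-box snoRNAs among them, come from the maternal copy and are read in 1 direction as a nearly continuous transcription unit. An intergenic region between Dlk1 and Meg3, methylated on the paternal copy, controls both sets, and in mouse stem cells loss of Meg3 expression is known to accompany methylation of the maternal copy. Neither DNA methylation nor parental origin was measured in these libraries, and in bulk RNA fewer expressing cells and less RNA per cell cannot be told apart.

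The hairpin genes of the members encode miRNAs whose mature forms RefSeq (GRCm38.p6) lists for 38 of the 39, 71 sequences with 65 different seeds. Sequences are given 5′ to 3′ with bases 2 to 8, the seed that pairs with target mRNAs, in capitals. The first set is shown because these miRNAs are transcribed from the strand opposite to Rtl1, inside its exon, and so are complementary to its mRNA.
mmu-miR-127-3p: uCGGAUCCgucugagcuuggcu
mmu-miR-433-3p: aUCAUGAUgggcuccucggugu
mmu-miR-431-5p: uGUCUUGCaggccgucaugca
mmu-miR-434-3p: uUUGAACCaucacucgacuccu
mmu-miR-432: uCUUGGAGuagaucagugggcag

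The second set is shown because its members share seeds with one another, which 6 seeds did. Among the members each of these seeds is carried by a pair of hairpin genes. Hairpin genes left out by the count minimum were not searched for seeds.
mmu-miR-3070-5p: aGCCCCUGaccuugaaccuggga
mmu-miR-3070-3p: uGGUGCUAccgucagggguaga
mmu-miR-3070-2-3p: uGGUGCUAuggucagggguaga
mmu-miR-379-5p: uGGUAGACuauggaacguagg
mmu-miR-1193-5p: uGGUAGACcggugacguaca
mmu-miR-379-3p: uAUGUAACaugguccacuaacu
mmu-miR-411-3p: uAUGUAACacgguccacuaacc
mmu-miR-1197-5p: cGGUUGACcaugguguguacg
mmu-miR-758-5p: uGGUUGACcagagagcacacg
mmu-miR-453: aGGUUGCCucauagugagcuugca
mmu-miR-496a-5p: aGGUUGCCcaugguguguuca

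The reads were 75 nt long and came from total RNA, so a count at a hairpin or snoRNA gene reads a longer precursor or host RNA and does not measure the mature miRNA or snoRNA. Levels below are therefore those of the transcription unit at that place. Of the 63 members, 27 had 10 or more counts in at least 1 library of every group (12 hairpin genes, 7 snoRNA genes, the 5 long noncoding genes, Dlk1, Dio3 and the unclassified Gm37899), and the results rest on these. The other 36 were in the same fit, but they met the count minimum through the groups where they were higher, so they are described by their counts and their calls support nothing here. Neighbouring members can share a transcript and sometimes reads, so they are not independent of each other.

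The labels were checked on the targeted genes. Trim71 was at 101 and 105 CPM in the knockout libraries and between 628 and 695 CPM in the other 6, and these counts cover the whole gene, so they do not show whether a deleted part is read. Mbnl1 was at 48.8 and 50.9 CPM in knockout cells, 28.6 and 27.4 CPM in mutant cells, 193 and 195 CPM in overexpression and 25.9 and 26.1 CPM in wild type. All 8 embryonic stem cell markers listed reached 1 CPM in every library, and 5 of 8 fibroblast and feeder markers stayed under 1 CPM in every library, with Postn, Dcn and Lum at 0 in some. Summed primitive endoderm markers were at 137 and 140 CPM in knockout cells, 296 and 343 CPM in mutant cells, 285 and 287 CPM in overexpression and 185 and 186 CPM in wild type. Summed trophoblast markers were at 121 and 121 CPM in knockout cells, 59.1 and 65.7 CPM in mutant cells, 80.5 and 79.1 CPM in overexpression and 115 and 113 CPM in wild type. Summed neural markers were at 109 and 110 CPM in knockout cells and 139 to 159 CPM in the other 6 libraries. Summed fibroblast and feeder markers were at 8.62 and 9.37 CPM in knockout cells, 5.55 and 5.25 CPM in mutant cells, 8.38 and 7.76 CPM in overexpression and 4.93 and 5.29 CPM in wild type. The part of these markers in the results below was not tested.

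In Mbnl1 overexpression the noncoding RNAs of the cluster were far lower than in wild type along the whole chain, the 59 plus-strand members together at 13.3% of the wild-type level. Meg3 (mm10, chr12:109541001-109571726, plus strand), the long noncoding RNA at its head, was at 11.3 and 11.7 CPM in overexpression, against 82.2 and 95.2 CPM in wild type. Rian (chr12:109603940-109661716, plus strand), whose introns hold snoRNAs, was at 48.5 and 51.8 CPM in overexpression, against 354 and 392 CPM in wild type. Mirg (chr12:109729764-109749460, plus strand), the host of the last miRNAs, was at 8.77 and 9.37 CPM in overexpression, against 63.9 and 74.8 CPM in wild type. For each of the 3 genes both overexpression libraries lay far below both wild-type libraries, and the libraries of a group differed by much less than the groups.

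By edgeR's quasi-likelihood test with Benjamini-Hochberg adjustment over 18055 genes, Meg3 fell by 2.95 on the log2 scale in overexpression (SE 0.072, adjusted p = 1.68e-11). Rian fell by 2.90 (SE 0.0484, adjusted p = 1.13e-16) and Mirg by 2.94 (SE 0.0745, adjusted p = 7.95e-12). Expressed as folds, the fitted level was 7.71 times lower for Meg3, 7.44 times lower for Rian and 7.65 times lower for Mirg. Of 12840 tested genes with a mean of at least 1 CPM, 20 had a lower log2 fold change than Meg3.

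The lesser-known long transcripts were low in overexpression as well, the 5 long noncoding genes ranging from 13.0% (Meg3) to 15.9% (Gm26945) of wild type. Gm37899 (chr12:109668869-109677585), an unclassified transcript between Rian and Mirg, was at 2.75 and 3.42 CPM in overexpression, against 21.6 and 25.8 CPM in wild type, and fell by 2.94 on the log2 scale (SE 0.101, adjusted p = 6.5e-11). B830012L14Rik (chr12:109695586-109702587), farther along, was at 0.357 and 0.495 CPM in overexpression, against 3.17 and 3.36 CPM in wild type, and fell by 2.94 (SE 0.164, adjusted p = 7.47e-11). Gm26945 (chr12:109640341-109642351), inside a Rian intron, was at 1.51 and 1.45 CPM in overexpression, against 9.32 and 9.26 CPM in wild type, and fell by 2.65 (SE 0.0884, adjusted p = 1.03e-13). In each case the groups did not overlap. Of the 27 members with 10 or more counts in every group, 27 had both overexpression libraries below both wild-type libraries, which held for 38.8% of all tested genes.

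**Figure D1:**
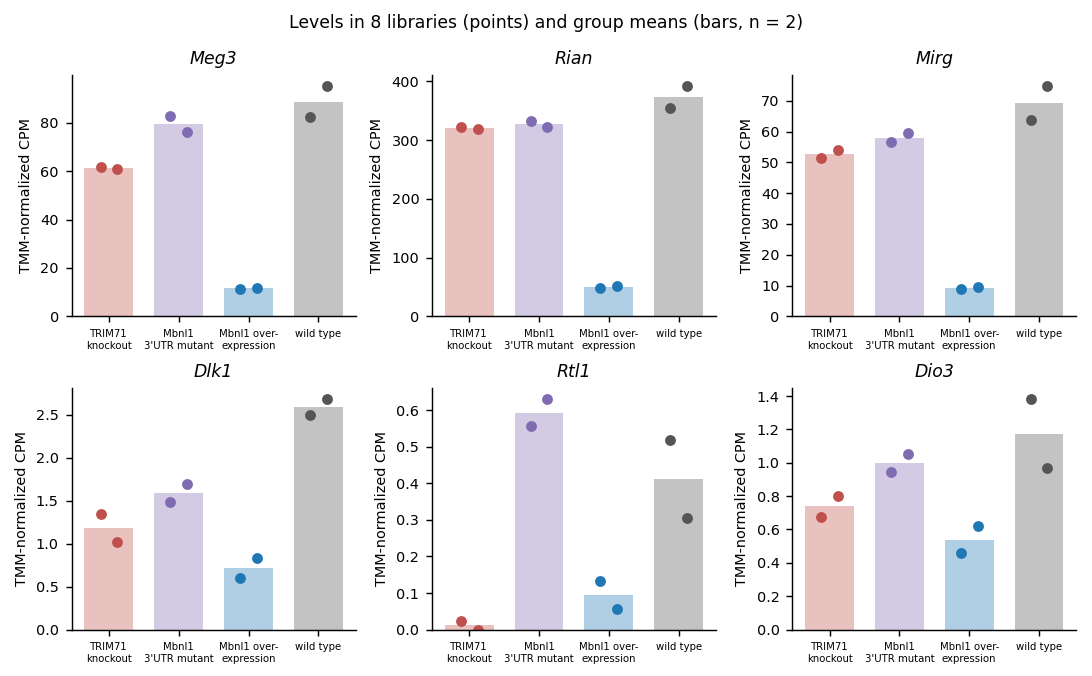
TMM-normalized CPM (linear axes from 0) of 6 members in the TRIM71 knockout, the Mbnl1 3'UTR mutant, Mbnl1 overexpression and wild type. Points are libraries and bars are means of 2. Meg3, Rian and Mirg share 1 pattern with overexpression far below the rest, for example 48.5 and 51.8 CPM of Rian, while Rtl1 is lowest in the knockout.

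The protein-coding neighbours were also lower in overexpression, by less. Dlk1 (chr12:109452823-109463336, plus strand) was at 0.602 and 0.829 CPM in overexpression, against 2.5 and 2.68 CPM in wild type, and fell by 1.85 on the log2 scale (SE 0.184, adjusted p = 1.4e-07). Dio3 (chr12:110279068-110281097, plus strand) was at 0.457 and 0.622 CPM in overexpression, against 1.38 and 0.968 CPM in wild type, and fell by 1.13 (SE 0.224, adjusted p = 0.000359). The groups did not overlap for either gene, although the wild-type libraries differed widely for Dio3. Whether these falls differ in size from that of Meg3 was not tested. Per kb of annotated exon, the mean level in overexpression was 0.126 CPM for Dlk1, 0.266 for Dio3, 0.636 for Meg3, 1.24 for Mirg and 2.75 for Rian, so the paternally expressed genes were low in these cells. In wild type the same quantity was 0.457 CPM per kb for Dlk1, 0.579 for Dio3, 4.90 for Meg3, 9.51 for Mirg and 20.5 for Rian, and the order of these 5 genes was the same.

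Over the 27 members with 10 or more counts in every group, 27 were called lower in overexpression, where 27.2% of all tested genes were. A further 35 members reached 10 counts in no overexpression library and so entered only through other groups, and no count of calls is read from them. The median log2 fold change of the 27 was -2.75, with a range of -3.37 (Mir453) to -1.13 (Dio3), beside -0.01 for all tested genes. A 4-fold or greater called fall was found for 2.18% of all tested genes.

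The hairpin and snoRNA genes were also low in overexpression. The 12 hairpin and 7 snoRNA genes with 10 or more counts in every group had median log2 fold changes of -2.67 and -3.05. The sums below also hold 27 hairpin and 7 snoRNA genes that met the count minimum only through other groups, which favours a low fraction in overexpression. The 39 hairpin genes summed to 3.04 and 3.48 CPM in overexpression, against 22.9 and 27.1 CPM in wild type, or 13.1% of wild type. The 14 snoRNA genes summed to 1.14 and 1.14 CPM in overexpression, against 8.48 and 9.64 CPM in wild type, or 12.6%. The 5 long noncoding genes summed to 70.4 and 74.8 CPM in overexpression, against 513 and 574 CPM in wild type, or 13.4%. The 3 protein-coding genes together stood at 32.4%, and whether these summed fractions differ was not tested.

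By position, every summed set of hairpin and snoRNA genes was low in overexpression, with the same limit from the count minimum. Whether the fractions of these sets differ was not tested. The 6 hairpin genes between Meg3 and Rtl1 stood at 11.6% of wild type in overexpression, the 5 opposite to Rtl1 at 13.2%, the 20 between Rian and Mirg at 14.6% and the 5 inside Mirg at 11.6%. The 2 hairpin genes inside Rian stood at 7.93%, on 1 and 6 summed counts in overexpression. The 5 snoRNA genes inside Rian stood at 13.7% and the 9 beyond it at 11.6%. Single hairpin genes ranged from 3.05% (Mir432) to 31.2% (Mir323) of wild type, but Mir432 rested on 1 and 5 counts in overexpression, against 91 and 83 in wild type, with an exact 95% counting interval of 1.09 to 6.7% around 3.01% of the scaled summed counts. Mir323 had 11 and 9 counts in overexpression, against 31 and 25 in wild type. Single snoRNA genes ranged from 5.76% (AF357428) to 18.4% (Gm25854).

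**Figure D2:**
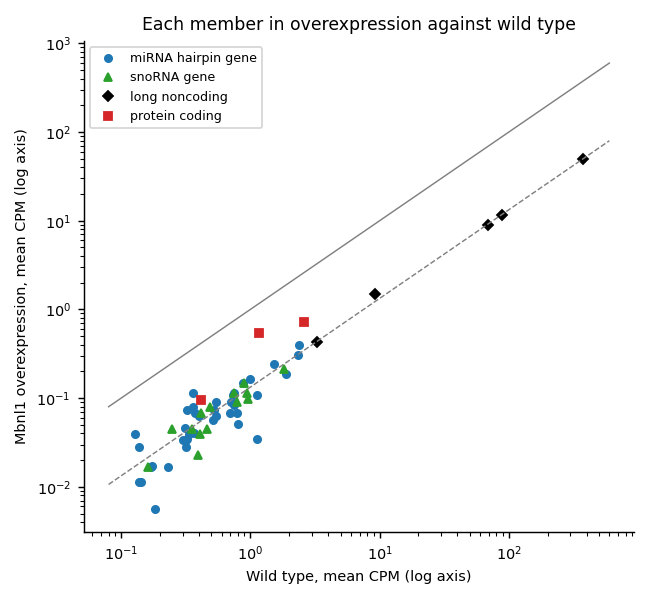
Mean TMM-normalized CPM of the hairpin, snoRNA, long noncoding and protein-coding members in Mbnl1 overexpression (vertical) against wild type (horizontal), both axes logarithmic, n = 2 libraries each. Gm37899 and Gm27596 are not drawn. The solid line is equality and the dashed line is 13.3% of wild type, the ratio of the summed plus-strand noncoding members; the noncoding genes lie around the dashed line over their whole range and Dlk1, Dio3 and Rtl1 lie above it.

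Among the best-counted hairpin genes, Mir127 (chr12:109592846-109592915, plus strand, opposite to the Rtl1 exon) was at 0.39 and 0.414 CPM in overexpression, against 2.18 and 2.57 CPM in wild type, and fell by 2.56 on the log2 scale (SE 0.185, adjusted p = 2.36e-09). Mir433 (chr12:109591715-109591838), beside it, fell by 2.63 (SE 0.216, adjusted p = 1.28e-08). The Mir3070a and Mir3070b genes, which share both seeds, together had 38 and 49 counts in overexpression, against 326 and 325 in wild type, or 11.7% of the scaled wild-type level. The other seed-sharing pairs were likewise low: Mir1193 with Mir379 at 13.8% of wild type, Mir411 with Mir379 at 15.7%, Mir1197 with Mir758 at 14.8% and Mir453 with Mir496a at 10.8%. No pair kept 1 source of its seed near the wild-type level in overexpression.

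Of the snoRNA genes named for their level, DQ267102 (in a Rian intron) was at 0.245 and 0.184 CPM in overexpression, against 1.60 and 2.02 CPM in wild type, and fell by 3.06 on the log2 scale (SE 0.22, adjusted p = 2.21e-09). Gm23787, Gm22205, Gm25856, Gm24564, Gm23600 and Gm25224 fell by 3.30, 3.05, 3.09, 2.58, 2.69 and 2.60, with SEs of 0.298 to 0.463. AF357341 had 4 and 4 counts in overexpression, against 30 and 41 in wild type. The snoRNA genes of this cluster occur as near-identical copies, so how reads were split among single copies is uncertain.

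**Figure D3:**
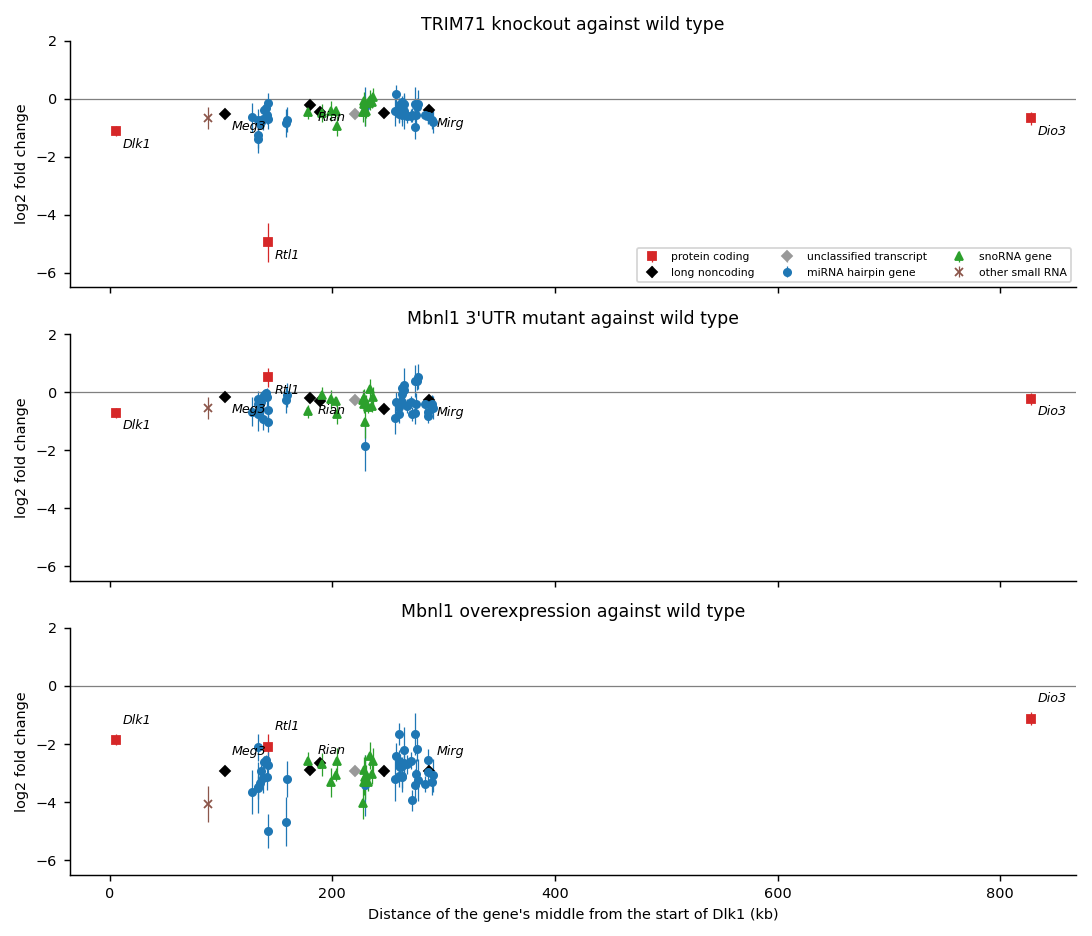
Fitted log2 fold change against wild type, with its standard error, of the 63 members by the distance of the gene's middle from the start of Dlk1 in kb, for the TRIM71 knockout, the Mbnl1 3'UTR mutant and Mbnl1 overexpression. In overexpression most noncoding members between Meg3 and Mirg lie around -3, from -4.99 (Mir432) to -1.665 (Mir323). Rtl1 lies at -2.09, Dlk1 at -1.85 and Dio3 at -1.13. Values resting on few counts (Rtl1 in the knockout above all) depend on the fit and are no bound.

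Among 24 tested genes flanking the cluster on chromosome 12, within 1 Mb of either end, 0 showed a called fall of 4-fold or more in overexpression. Of these, 6 were higher, 2 were lower and 16 did not pass in overexpression, where 27.7% of all tested genes were called higher and 27.2% lower. Their log2 fold changes ran from -0.73 to 0.42, and the median was 0.037 beside -0.01 for all tested genes. The 3 largest called were Rcor1, a corepressor subunit, at 0.42 (SE 0.0429, adjusted p = 1.82e-07), Dync1h1, the dynein heavy chain, at 0.40 (SE 0.0348, adjusted p = 3.15e-08), and Wars, a tRNA synthetase, at 0.30 (SE 0.034, adjusted p = 6.64e-07). In the TRIM71 knockout 5 of the 24 were higher and 4 lower, beside 24.2% and 20.9% of all tested genes, led by Amn at -1.87 (SE 0.391, adjusted p = 0.0034), Rcor1 at 0.89 (SE 0.0427, adjusted p = 3.01e-11) and Traf3, a signalling adaptor, at 0.65 (SE 0.0491, adjusted p = 8.29e-09). In the mutant 1 was higher and 2 lower, beside 8.32% and 7.69% of all tested genes, with Mok at -0.44 (adjusted p = 0.00311), Rps19-ps6 at -0.39 (adjusted p = 0.0124) and Dync1h1 at 0.31 (adjusted p = 7.34e-06).

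**Figure D4:**
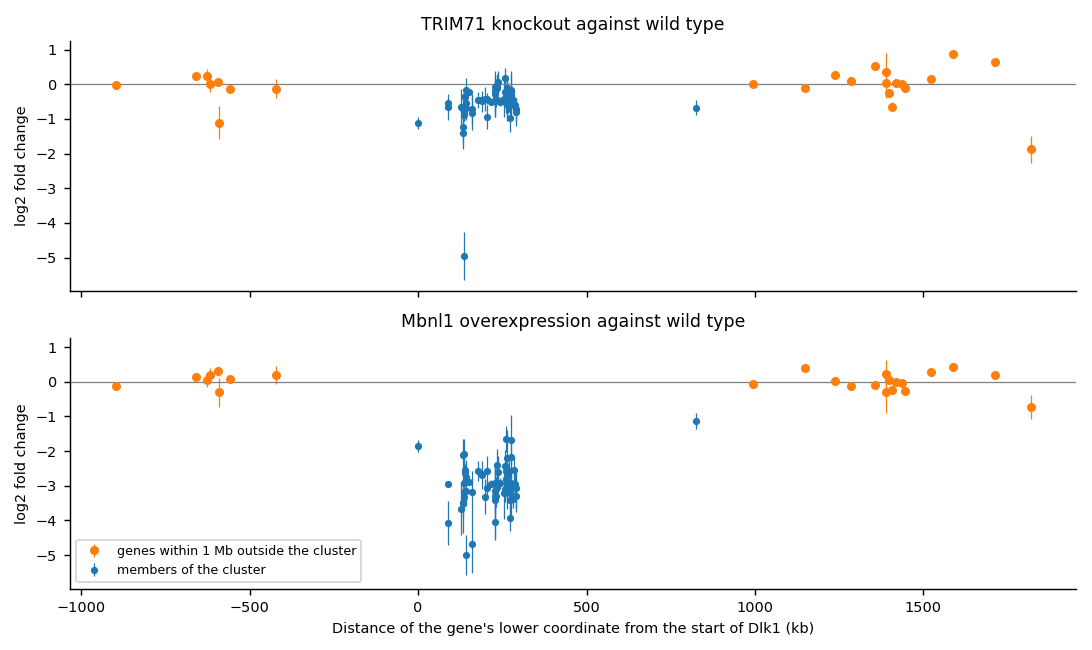
Fitted log2 fold change with its standard error against wild type in the TRIM71 knockout (above) and Mbnl1 overexpression (below), by distance from the start of Dlk1 in kb, for members of the cluster (blue) and 24 tested genes within 1 Mb outside it (orange). In overexpression the genes outside run from -0.73 to 0.42 and every member lies at -1.13 or lower.

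In the TRIM71 knockout the cluster was lower than in wild type by a smaller and less even amount. Meg3 was at 61.7 and 61.1 CPM in the knockout, against 82.2 and 95.2 CPM in wild type, and fell by 0.53 on the log2 scale (SE 0.0632, adjusted p = 3.4e-05). Rian was at 323 and 319 CPM in the knockout, against 354 and 392 CPM in wild type, and fell by 0.22 (SE 0.0442, adjusted p = 0.000727). Mirg was at 51.3 and 53.9 CPM in the knockout, against 63.9 and 74.8 CPM in wild type, and fell by 0.40 (SE 0.0647, adjusted p = 0.000302). The groups did not overlap for any of the 3, though the wild-type libraries stood apart from each other by more than the knockout libraries did. Gm37899, B830012L14Rik and Gm26945 fell by 0.52, 0.51 and 0.45 (adjusted p = 0.000228, 0.00363 and 6.2e-05).

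Of the 27 members with 10 or more counts in every group, 13 were called lower in the knockout and 0 higher, where 20.9% of all tested genes were called lower and 24.2% higher. Their median was -0.49 on the log2 scale, beside -0.005 for all tested genes. Summed, the snoRNA genes stood at 80.3% of wild type, the long noncoding genes at 81.7%, the hairpin genes at 68.4% and the protein-coding genes at 46.4%. The 6 hairpin genes between Meg3 and Rtl1 stood lowest among the hairpin sets above, at 53.9% (3.09 and 3.06 CPM in the knockout, against 5.49 and 5.93 CPM in wild type), while the 9 snoRNA genes beyond Rian stood at 88.1%. Whether these fractions differ was not tested.

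Within that low stretch, Mir3070a was at 1.14 and 0.923 CPM in the knockout, against 1.76 and 2.04 CPM in wild type, and fell by 0.88 on the log2 scale (SE 0.176, adjusted p = 0.000543). Mir3070b was at 1.21 and 1.47 CPM in the knockout, against 2.37 and 2.27 CPM in wild type, and fell by 0.79 (SE 0.152, adjusted p = 0.00036). Mir540, just before them, had 18 and 32 counts in the knockout, against 48 and 73 in wild type, or 37.9% of the scaled wild-type level (exact 95% counting interval 26.7 to 53.1%). Mir453, Mir654 and DQ267102 were called lower by 0.54, 0.58 and 0.42 (adjusted p = 0.028, 0.0452 and 0.0469), but each call was lost with DESeq2 (adjusted p = 0.168 to 0.183) and when wild-type replicate 2 was left out (adjusted p = 0.109 to 0.367). Mir127 and Mir433, opposite to Rtl1, had log2 fold changes of -0.33 (SE 0.147, adjusted p = 0.0774) and -0.38 (SE 0.168, adjusted p = 0.0761), which did not pass, although Mir127 passed without knockout replicate 2 (-0.50, adjusted p = 0.0456).

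The protein-coding genes were lower in the knockout as well. Dlk1 was at 1.35 and 1.02 CPM in the knockout, against 2.5 and 2.68 CPM in wild type, and fell by 1.12 on the log2 scale (SE 0.172, adjusted p = 3.9e-05). Dio3 was at 0.676 and 0.801 CPM in the knockout, against 1.38 and 0.968 CPM in wild type, and fell by 0.67 (SE 0.215, adjusted p = 0.0167). The Dlk1 groups were well apart, whereas the Dio3 call was lost without wild-type replicate 1 (-0.39, adjusted p = 0.254), without knockout replicate 1 (-0.55, adjusted p = 0.133) and with DESeq2 (adjusted p = 0.0729).

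Rtl1 (chr12:109589193-109600330, minus strand) was assigned almost no reads in the knockout. It met the count minimum only through the other groups, which favours a low fraction in the knockout, so its counts are only described. It had 2 and 0 counts in the knockout libraries, 46 and 52 in the mutant, 12 and 5 in overexpression and 41 and 23 in wild type. The knockout and overexpression libraries lay below every wild-type library, and the mutant libraries lay above them. Against wild type the scaled level was 2.87% in knockout cells (exact 95% counting interval 0.34 to 10.8%), 143% in mutant cells (103 to 199%) and 23.2% in overexpression (12.8 to 40.1%), intervals that cover counting error only. Without knockout replicate 1 the knockout held 0 counts, and without wild-type replicate 1 the mutant stood at 195%.

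The RNA opposite to Rtl1 did not follow it in the knockout. The 5 hairpin genes on the other strand of its exon (Mir431, Mir433, Mir127, Mir434 and Mir432, whose mature sequences are given above) together had 366 and 356 counts in knockout cells, 368 and 449 in mutant cells, 65 and 71 in overexpression and 423 and 479 in wild type. They stood at 73.3% of wild type in knockout cells, 84.5% in mutant cells and 13.2% in overexpression. Rtl1 had 0.546 and 0 counts per 100 of these in knockout cells, 12.5 and 11.6 in mutant cells, 18.5 and 7.04 in overexpression and 9.69 and 4.80 in wild type. This ratio was lower in both knockout libraries than in any other library, while the overexpression range took in the mutant's. The limit from the count minimum on Rtl1 holds for this ratio too. Mir3071 is annotated in GENCODE M21 on the minus strand like Rtl1, inside its exon, and shares 80 exon bases with it. For both genes the identifier version in the counts differed from that of M21, so the bounds used in counting may differ. Mir3071 had 26 and 21 counts in knockout cells, 13 and 21 in mutant cells, 3 and 5 in overexpression and 23 and 25 in wild type, and so was not low in the knockout. How reads at this place were assigned to a gene and a strand is therefore uncertain.

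In the Mbnl1 3'UTR mutant the shifts were small. Rian was at 333 and 323 CPM in the mutant, against 354 and 392 CPM in wild type, and fell by 0.19 on the log2 scale (SE 0.0442, adjusted p = 0.00751). Mirg was at 56.5 and 59.4 CPM in the mutant, against 63.9 and 74.8 CPM in wild type, and fell by 0.26 (SE 0.0645, adjusted p = 0.0165). Both calls rested on wild-type replicate 2, without which Rian was at -0.11 (adjusted p = 0.124) and Mirg at -0.14 (adjusted p = 0.108), and that of Mirg was also lost without mutant replicate 1 (-0.22, adjusted p = 0.159). Meg3 was at 82.8 and 76.1 CPM in the mutant, against 82.2 and 95.2 CPM in wild type, so the groups overlapped, and its log2 fold change of -0.16 (SE 0.0627, adjusted p = 0.12) did not pass, although it did without wild-type replicate 1 (-0.26, adjusted p = 0.00349) and without a filter on low counts (adjusted p = 0.00331).

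Dlk1 and B830012L14Rik kept their calls in the mutant under every alternative run. Dlk1 was at 1.48 and 1.69 CPM in the mutant, against 2.5 and 2.68 CPM in wild type, and fell by 0.71 (SE 0.166, adjusted p = 0.00634). B830012L14Rik was at 2.13 and 2.22 CPM in the mutant, against 3.17 and 3.36 CPM in wild type, and fell by 0.58 (SE 0.129, adjusted p = 0.0042). For both genes the groups were apart by more than their spread. Gm26945 fell by 0.28 (adjusted p = 0.0112), lost without mutant replicate 2 (adjusted p = 0.061), without wild-type replicate 1 (0.0632) and with DESeq2 (0.0671). Gm37899 fell by 0.27 (adjusted p = 0.0422), lost without wild-type replicate 2 (adjusted p = 0.292), without 4 other libraries in turn (adjusted p = 0.0863 to 0.142) and with median-ratio size factors (adjusted p = 0.0502). Dio3, at 0.943 and 1.05 CPM in the mutant, against 1.38 and 0.968 CPM in wild type, had a log2 fold change of -0.24 (SE 0.206, adjusted p = 0.506) and did not pass.

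Of the 27 members with 10 or more counts in every group, 8 were called lower in the mutant and 0 higher, where 7.69% of all tested genes were called lower and 8.32% higher; over all 63 members 9 were called lower. With DESeq2 the count over the 63 was 5, where 2294 of 14904 genes were called in either direction. Without wild-type replicate 2 or mutant replicate 1 fewer members were called, and so was a smaller share of all tested genes. The summed hairpin genes stood at 79.2% of wild type, the snoRNA genes at 77.9% and the long noncoding genes at 87.4%. Mir3070a and Mir496a were called at -0.57 (adjusted p = 0.0315) and -0.81 (adjusted p = 0.0349). The call of Mir3070a was lost without each mutant or wild-type library in turn (-0.668 to -0.455) and with DESeq2 (adjusted p = 0.135). How the call of Mir496a fared under the alternatives was not followed singly, so it is not shown to hold.

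The lines were also compared directly, since the comparisons with wild type share its 2 libraries. Between the TRIM71 knockout and Mbnl1 overexpression, the members with 10 or more counts in every group were higher in the knockout in 26 of 27 cases, where 27.5% of all tested genes were. Rian was higher by 2.68 on the log2 scale (SE 0.0481, adjusted p = 1.18e-16), Mirg by 2.54 (SE 0.0744, adjusted p = 3.3e-11) and Meg3 by 2.42 (SE 0.0718, adjusted p = 9.7e-11). Dlk1 was higher by 0.73 (SE 0.199, adjusted p = 0.00473), a call lost without knockout replicate 1 (adjusted p = 0.0912) or overexpression replicate 1 (0.0798), and Dio3 at 0.45 (SE 0.238, adjusted p = 0.118) was the member that did not pass. Rtl1 went the other way, with 2 and 0 counts in the knockout, against 12 and 5 in overexpression.

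Between the knockout and the mutant, 3 of the 27 were called lower in the knockout, where 21.3% of all tested genes were. Meg3 was lower by 0.37 (log2 fold change -0.37, SE 0.0632, adjusted p = 0.000527), whereas Rian at -0.03 (SE 0.0442, adjusted p = 0.624) did not pass. Mir3070b was lower with a log2 fold change of -0.46 (SE 0.154, adjusted p = 0.0206). Gm37899 at -0.25 (adjusted p = 0.0278) lost its call without 3 libraries in turn (adjusted p = 0.12 to 0.134) and with scaling by library size only (adjusted p = 0.0571). Mirg at -0.14 (adjusted p = 0.103) and Dlk1 at -0.41 (SE 0.18, adjusted p = 0.0717) did not pass. Mirg did pass in 5 alternatives, among them without either wild-type library (adjusted p = 0.017 and 0.0176), and Dlk1 without knockout replicate 1 (-0.63, adjusted p = 0.0366). Between overexpression and the mutant, 26 of the 27 were called lower in overexpression, where 25.4% of all tested genes were, Mir323 (-0.94, adjusted p = 0.0641) being the exception, with Rian at -2.71 (SE 0.0481, adjusted p = 4.5e-16), Dlk1 at -1.14 (SE 0.192, adjusted p = 7.92e-05) and Dio3 at -0.89 (SE 0.228, adjusted p = 0.00321), the last lost without overexpression replicate 1 (adjusted p = 0.0564).

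Factors known to read, write, erase or repress at imprinting control regions were examined as a list of 20, all of them tested. In overexpression 6 were higher, 9 lower and 5 did not pass, where 27.7% of all tested genes were called higher and 27.2% lower (median log2 fold change -0.014, beside -0.01 for all tested genes). In the knockout 6 were higher, 8 lower and 6 did not pass, beside 24.2% higher and 20.9% lower over all tested genes (median -0.023, beside -0.005). In the mutant 6 were higher, 2 lower and 12 did not pass, beside 8.32% higher and 7.69% lower over all tested genes (median 0.061, beside -0.006). The list thus moved in both directions in each line.

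Aff3, which in mouse embryonic stem cells binds at the control region of this cluster, was at 8.29 and 8.14 CPM in knockout cells, 12 and 12.5 CPM in mutant cells, 3.99 and 4.50 CPM in overexpression and 19.1 and 17.3 CPM in wild type. It fell by 1.15 in the knockout (SE 0.0695, adjusted p = 5.24e-10), by 0.57 in the mutant (SE 0.067, adjusted p = 1.08e-05) and by 2.10 in overexpression (SE 0.0747, adjusted p = 2.29e-13) on the log2 scale. The direct differences between the knockout and overexpression (0.95, adjusted p = 1.35e-08) and between the knockout and the mutant (-0.58, adjusted p = 2.94e-06) also passed. Aff3 was lowest in overexpression, where Meg3, Rian and Mirg were lowest. Of the other listed factors, Dppa3, Dnmt3l, Trim28, Jarid2 and Ctcf also had their lowest mean CPM in overexpression. The part of any of these factors in the levels of the cluster was not tested.

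Dnmt3l, the cofactor of the de novo DNA methyltransferases, was at 41.4 and 42.1 CPM in knockout cells, 131 and 142 CPM in mutant cells, 37.8 and 42.4 CPM in overexpression and 170 and 146 CPM in wild type. It fell by 1.92 in the knockout (SE 0.0865, adjusted p = 1.89e-06) and by 1.98 in overexpression (SE 0.0866, adjusted p = 9.36e-07), and these 2 lines did not pass a test of their difference (0.06, SE 0.0875, adjusted p = 0.599). Dnmt3a, the methyltransferase it assists, fell by 1.14 in the knockout (SE 0.0409, adjusted p = 7.58e-13) and in overexpression its log2 fold change was -0.33 (adjusted p = 1.45e-06).

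Dppa3, which protects methylated imprints in the mouse zygote, was at 2.02 and 1.52 CPM in knockout cells, 0.592 and 0.764 CPM in mutant cells, 0.491 and 0.507 CPM in overexpression and 0.95 and 0.822 CPM in wild type. It rose by 0.99 in the knockout (SE 0.19, adjusted p = 0.000344) and fell by 0.83 in overexpression (SE 0.225, adjusted p = 0.00454), and at -0.39 in the mutant did not pass (adjusted p = 0.264). Tet2, an enzyme that oxidizes methylated cytosine, rose in all 3 lines, by 0.87 in knockout cells, 0.56 in mutant cells and 0.69 in overexpression (adjusted p = 7.69e-12, 1.28e-08 and 4.42e-11). Zfp57, the zinc finger protein that binds methylated control regions, also rose in all 3 lines, by 0.44 in knockout cells, 0.44 in mutant cells and 0.55 in overexpression (adjusted p = 1.93e-07, 9.99e-07 and 5.44e-09). Suz12, a subunit of Polycomb repressive complex 2, rose by 0.66 in knockout cells and 0.39 in overexpression (adjusted p = 7.34e-11 and 3.36e-08), and at 0.01 in mutant cells did not pass (adjusted p = 0.849).

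**Figure D5:**
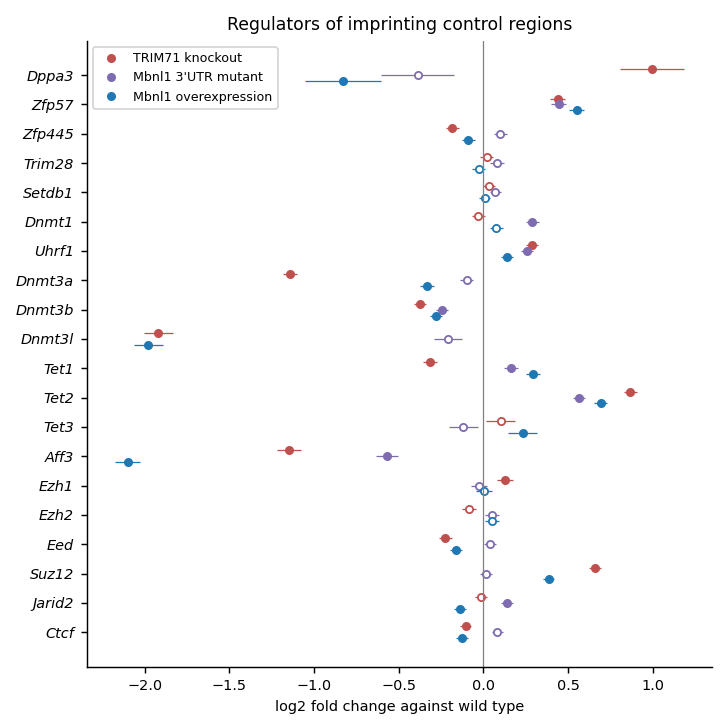
Fitted log2 fold change against wild type, with its standard error, of 20 regulators of imprinting control regions in the TRIM71 knockout, the Mbnl1 3'UTR mutant and Mbnl1 overexpression. Filled points passed at an adjusted p under 0.05 and open points did not; Aff3 stands at -1.15, -0.57 and -2.10 in the 3 lines.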

How the data were processed

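Stranded total RNA-seq libraries (75 nt paired-end) were aligned with STAR 2.5.0 to mm10, per the submitters' processing notes. The deposited tables give raw counts of reads for each gene, as the authors made them, without normalization. Which annotation release and strand setting were used is not given in the sources used here. Genes were placed by GENCODE M21 through identifiers without their version, and 48 of the 63 members had the same version. Genes with a filterByExpr minimum count of 10 and total of 15 (18055) were scaled by TMM and fitted in 1 quasi-likelihood model of 4 groups with 4 residual degrees of freedom (R 4.3.3, edgeR 4.0.16). P-values were adjusted by Benjamini-Hochberg across all of these genes, with calls made under 0.05. With 2 libraries a group, the smallest two-sided p of an exact permutation test is 0.333. Alternatives were DESeq2 1.42.0, other scalings and filters, the compared groups alone, the replicate number as a block, and each library left out. Levels over 2 libraries are printed singly, and counting intervals are exact.

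The rule for naming genes took all protein-coding and long noncoding members, the 8 best-counted hairpin and snoRNA genes and the 2 highest and 2 lowest fold changes among members with 10 counts in all 8 libraries. It also took called regulators with an absolute log2 fold change of at least 0.5 and the 3 largest called flanking genes. Further members are named where they lie at the end of a range, share a seed, or overlap Rtl1, and part of that choice followed a look at the values. The members and the lists were chosen with earlier results of these data known. The hairpin genes' mature sequences are those of RefSeq.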

Additional observations from a re-analysis of the deposited data

How the results depend on the processing

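The numbers of members called (of 63, of which 36 met the count minimum only through some groups) were 16 for the knockout, 9 for the mutant and 62 for overexpression, each against wild type, 59 for the knockout against overexpression, 5 for the knockout against the mutant and 60 for overexpression against the mutant. Over all 18055 tested genes, 8143, 2891, 9901, 9890, 8252 and 9403 were called in the same order. The counts for the knockout and the mutant against wild type, and between those lines, were not above these shares of calls in either direction. All of these member calls were lower. They made up 25.4% of members for the knockout and 14.3% for the mutant, where 20.9% and 7.69% of all tested genes were called lower. Between the knockout and the mutant it was 7.94%, beside 21.3% of all tested genes. With genes of a mean of at least 1 CPM, which left 12 members, the counts were 10, 7, 12, 12, 3 and 12. Of all 12783 genes of that filter, 7034, 2705, 8406, 8202, 7133 and 8107 were called. With DESeq2 the mutant count was 5, where 2294 of 14904 genes were called. In the knockout against wild type DESeq2 lost the calls of Mir453, Mir654, DQ267102 and Dio3. Leaving out 1 library at a time moved the counts of called members, and the counts over all tested genes moved as well. Such a fit leaves 1 library in a group, so its counts are not given. Scaling by library size only gave 5816 higher and 3371 lower calls over all genes for overexpression against the mutant, beside 4822 and 4581 with TMM, and left 60 members called. With a minimum of 5 or 20 counts the rule found 71 or 53 members.

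Same-numbered libraries of different groups were not paired, since differences between replicates correlated at -0.0343 to 0.06. With the replicate block the 6 counts were 15, 9, 62, 59, 6 and 61. Over all 18055 tested genes the block gave 7951, 2744, 9815, 9732, 8060 and 9298 calls. Some log2 fold changes that did not pass changed sign when 1 library was left out. In the knockout against wild type these were Gm22205, which ran from -0.269 to 0.073 (0.014 without knockout replicate 2), and Gm25224, from -0.104 to 0.23. In the mutant against wild type these were Mir127, from -0.14 to 0.098 (0.011 without mutant replicate 1), Mir433, from -0.206 to 0.056, Gm23600, from -0.349 to 0.226 (0.093 without mutant replicate 1), Gm25224, from -0.861 to 0.315 (0.018 without wild-type replicate 2), and Dio3, from -0.466 to 0.047. Among log2 fold changes of the members named by the rule, 12 lost and 4 gained a call under at least 1 alternative. Those of weight are named beside their results, and the cause was not tested. Other called members, Mir496a among them, were not followed singly.

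Low counts limit the hairpin, snoRNA and other small RNA genes. In overexpression 35 members, all of these classes, reached 10 counts in no library, and 14 members reached 10 in all 8 libraries. The overexpression libraries had 86336462 and 85068872 total counts, against 80640117 and 75056306 in wild type, so they were not the shallower ones.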

Other observations

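Inside the bounds of the cluster, 33 listed genes stayed under the count minimum, and 21 of them were at 0 in all 8 libraries. Of these 21, 16 share exon bases on 1 strand with Meg3, Rian, Mirg, Gm26945 or Gm37899 in GENCODE M21, among them Mir770, Mir134 and Mir410, all well-known miRNAs of the cluster. The snoRNA gene DQ267101, which M21 also places in an exon of Rian, was not at 0: it had 17 and 34 counts in knockout cells, 27 and 30 in mutant cells, 3 and 4 in overexpressing cells and 35 and 28 in wild-type cells. Members just inside the minimum were Mir337, with 10 as its second-highest count, and Mir882, with 12, and genes just outside it were Mir370, Mir382 and Mir495, with 8 each.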
